A study of Mus musculus with 4 samples.

Results

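The nuclear genes for the subunits of oxidative phosphorylation were examined in melanocytes, the pigment cells of skin, grown from AhR knockout and wild-type mice. AhR, the aryl hydrocarbon receptor, is a transcription factor that responds to dioxins, tryptophan products and other small ligands. Members were the genes whose single platform symbol was an Nduf subunit, Sdha to Sdhd, a Uqcr gene, a Cox4 to Cox8 subunit, an Atp5 gene or Cycs. That gave 80 of the 12393 measured genes, of which 34 belonged to complex I, 4 to complex II, 8 to complex III, 16 to complex IV and 17 to complex V, with Cycs on its own. Each gene was read from its probe set with the highest mean over the 4 arrays.

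The knockout cells came from 2 mice of the strain AhRtm1Bra, in which exon 2 of Ahr is deleted, and the wild-type cells from 2 mice of the strain C57Bl/6. All 4 mice were female. Epidermal cells of tail skin spent 6 to 8 weeks in a serum-free melanocyte medium until melanin was visible, with no other treatment named, and each array holds the RNA of a single animal. The sources used here do not give the genetic background of the knockout strain, the ages of the mice or whether they were littermates. The arrays ask which transcripts differ when the receptor is missing, and the values below compare the respiratory complexes within that question.

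Oxidative phosphorylation takes place in the inner mitochondrial membrane. Complex I, the NADH dehydrogenase, and complex II, the succinate dehydrogenase of the citric acid cycle, pass electrons to coenzyme Q. Complex III hands them on to cytochrome c, and complex IV transfers them to oxygen. Complexes I, III and IV pump protons out of the matrix, and complex V, the ATP synthase, lets them back through and makes ATP. Most subunits are encoded in the nucleus, and a small core of complexes I, III, IV and V is encoded in mitochondrial DNA. In melanocytes the same organelle lies near the melanosomes, and the PGC-1 coactivators of mitochondrial genes are known to act on Mitf, the regulator of pigment genes.

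Some properties of the arrays bear on every value below. Ahr itself, by its brighter probe set, read 241 and 843 in AhR knockout 1 and 2, against 825 and 874 in wild type 1 and 2, so the knockout 2 array lay within the wild-type range. Where that probe set lies relative to the deleted exon was not analysed here, so it checks no label. The Gapdh control probe sets had a 3' to 5' ratio of 1.98 and 11.9 in knockout 1 and 2, against 2.13 and 2.85 in wild type, so knockout 2 stood apart. Such a ratio goes up when RNA is shortened or amplified mainly from its 3' end. Of 7 melanocyte markers 6 were measured, none was at 0, and their summed signal was 73204 and 100762 in knockout cells, against 64024 and 52669.7 in wild-type cells. Of these 6 markers 5 were higher and 1, Mitf, was lower, at 1668 and 2462, against 2771 and 2644. All 7 endothelial markers were lower, and their sum was 6549.6 and 1934, against 13296 and 16399. The 5 keratinocyte markers summed to 1385 and 288, against 188 and 213. Of these, Krt14 read 539 and 10.9, against 30.8 and 11.4, while Krt10 read 56.4 and 157, against 74.8 and 89.0. The 6 fibroblast markers summed to 318 and 245, against 590.1 and 794, and the 6 leukocyte markers to 3725 and 3233, against 1601 and 1604. Among the fibroblast markers Col3a1 read 95.1 and 50.5, against 372 and 439, while Lum read 21.8 and 23, against 2.77 and 13.5. Of these 6 markers 2 were bright enough to test, with 1 higher and 1 lower. Most of the leukocyte sum was Lyz2, at 2628 and 2776, against 669 and 881, while Cd68 read 808 and 208, against 819 and 578. The part of these differences in the results below was not tested. In a bulk culture, fewer cells of a type and less RNA per cell cannot be told apart.

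The subunit genes were higher on both knockout arrays as a group, without any single gene passing the test. Signals were converted to log2(signal + 16), and each array was set against the mean of the wild-type pair. The median over the 75 members bright enough to test was 0.43 in knockout 1 and 0.81 in knockout 2, against 0.078 in wild type 1 and -0.078 in wild type 2. Over the 7436 tested genes these medians were 0.079 and -0.028, against 0.035 and -0.035. The knockout minus wild-type difference had a median of 0.57 over the members, with a range of -0.57 to 1.24, and a median of 0.0071 over all tested genes. It was above 0 for 69 of 75 members, or 92%, and for 50.4% of all tested genes.

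Separation of the groups was common among the members and mostly went one way. Both knockout arrays lay above both wild-type arrays for 55 of the 75 tested members, or 73.3%, where 28.6% of all tested genes did so. Both lay below for 2 members, Ndufs1 and Sdha, or 2.67%, where 26.5% of all tested genes did so. The other 18 overlapped. In limma, a linear model that borrows the spread across genes, 0 of 75 members passed an adjusted p under 0.05 over all tested genes, where 0.82% of all tested genes passed. At an unadjusted p under 0.05, 26 members were higher, or 34.7%, and 0 were lower, where 7.61% of all tested genes were higher and 12.8% lower. All members were read on the same 4 arrays, so these shares describe 4 cultures and are no test of the group.

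The complexes differed in how far they stood from the wild-type level. After quantile normalization complex III was highest, at 0.62, and complex I was at 0.56. As deposited, complex I had the highest median difference, 0.75, followed by complex III at 0.57, complex IV at 0.56 and complex V at 0.48. Complex II was at 0.027. The deposited array medians within a genotype had a pooled SD of 0.26, 0.54, 0.11, 0.20 and 0.16 for complexes I to V. Complexes III, IV and V thus differed from each other by less than any of their SDs. The gap between complexes I and III was below the SD of complex I and above that of complex III, and the gap between complexes V and II was below the SD of complex II and above that of complex V. In knockout 1, all complexes sat close together, with medians of 0.54, 0.56, 0.59, 0.34 and 0.44 for complexes I to V. In knockout 2 they spread out, with 0.98, -0.47, 0.56, 0.71 and 0.76. Knockout 2 read higher than knockout 1 for 58 of 75 members, where 47.3% of all tested genes did so. The plot of members by array shows both patterns.

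**Figure D1:**
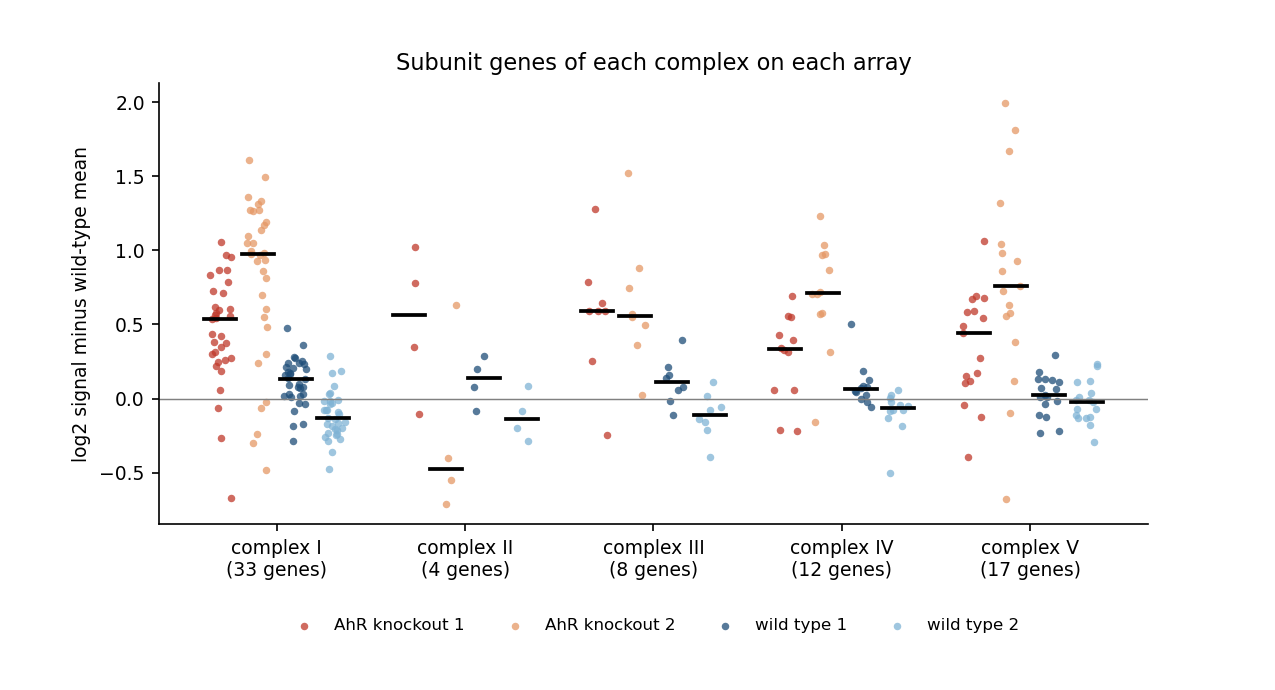
Log2(signal + 16) of each tested subunit gene minus its wild-type mean (vertical axis), by complex and array (horizontal axis). Each point is a gene and each black bar a median. The knockout medians lie above both wild-type medians in complexes I, III, IV and V, and in complex II the knockout 2 median is -0.47.

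Complex I held the members with the smallest p. Ndufs8, a core subunit that carries iron-sulfur clusters towards the coenzyme Q site, read 7425 and 9659 in AhR knockout cells, against 4659.8 and 3143 in wild-type cells. Both knockout arrays were above both wild-type arrays, and the log2 difference was 1.14 ± 0.32 (SE) with limma adjusted p = 0.105. The second-brightest of its 6 probe sets gave 1.18, and the mean of all 6 gave 0.88. Ndufb8, an accessory subunit of the membrane arm, read 3452 and 4987 in AhR knockout cells, against 2259 and 1368 in wild-type cells. The groups did not overlap, and wild type 2 was the lowest array, with a log2 difference of 1.23 ± 0.38 (SE) with limma adjusted p = 0.125. Ndufb10, another accessory subunit of the membrane arm, read 3387 and 4606 in AhR knockout cells, against 2174 and 1572 in wild-type cells, and its groups were also apart. Its log2 difference was 1.09 ± 0.35 (SE) with limma adjusted p = 0.137. The promoters of these 3 genes are shown because they lead the list. They are the 250 bases before the gene start, 5′ to 3′ on the gene's strand, from RefSeq on GRCm38.p6. Ndufs8 lies on the minus strand at chr19:3912775-3913024, Ndufb8 on the minus strand at chr19:44555443-44555692 and Ndufb10 on the minus strand at chr17:24724424-24724673.
Ndufs8: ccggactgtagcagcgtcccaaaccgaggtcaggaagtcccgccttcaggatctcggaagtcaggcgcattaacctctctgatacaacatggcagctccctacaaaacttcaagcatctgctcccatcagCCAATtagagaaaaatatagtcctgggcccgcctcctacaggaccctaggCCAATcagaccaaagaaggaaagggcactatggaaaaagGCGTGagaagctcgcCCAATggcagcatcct
Ndufb8: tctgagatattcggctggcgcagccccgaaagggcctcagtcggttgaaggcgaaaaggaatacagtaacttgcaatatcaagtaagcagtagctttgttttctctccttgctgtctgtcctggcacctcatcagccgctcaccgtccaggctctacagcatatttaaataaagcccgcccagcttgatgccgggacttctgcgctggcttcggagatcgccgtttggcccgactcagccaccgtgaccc
Ndufb10: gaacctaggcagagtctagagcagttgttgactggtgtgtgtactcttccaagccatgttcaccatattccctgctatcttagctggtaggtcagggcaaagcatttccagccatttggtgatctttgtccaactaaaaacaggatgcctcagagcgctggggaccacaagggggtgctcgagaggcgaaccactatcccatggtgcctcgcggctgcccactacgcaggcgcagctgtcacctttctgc
Capitals mark the letters GCGTG, the core that AhR with its partner is known to bind, and CCAAT, the NF-Y box, on either strand. The Ndufs8 window has 1 GCGTG and 3 CCAAT, and the windows of Ndufb8 and Ndufb10 have 0 of either.

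The remaining core subunits of complex I split. Ndufv1, which binds NADH and FMN, read 6208 and 5413 in AhR knockout cells, against 4142 and 2131 in wild-type cells, with a log2 difference of 0.96 ± 0.37 (SE) with limma adjusted p = 0.190. The wild-type arrays were far apart, and both lay below the knockout arrays. Ndufv2, its partner in the NADH-oxidising module, read 4383 and 8149 in AhR knockout cells, against 3474 and 3633 in wild-type cells, so knockout 2 was far above the other arrays, with a difference of 0.75. Ndufs7, another iron-sulfur subunit, differed by 0.89 and Ndufs3 by 0.28. Ndufs1, the large iron-sulfur subunit of the same module as Ndufv1 and Ndufv2, went the other way. It read 655 and 749 in AhR knockout cells, against 1064 and 1037 in wild-type cells, and both knockout arrays were below both wild-type arrays. Its log2 difference was -0.57 ± 0.36 (SE) with limma adjusted p = 0.385. Over the 6 tested core subunits the median was 0.82, and over the 27 tested accessory subunits it was 0.74.

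Accessory subunits of complex I were nearly all higher. Of the 27 tested, 26 had a difference above 0 and 21 had both knockout arrays above both wild-type arrays, with 13 at an unadjusted p under 0.05. Over all tested genes, the same counts were 50.4%, 28.6% and 7.61%. Ndufa13, also known as the cell death regulator GRIM-19, read 9605 and 16764 in AhR knockout cells, against 7489 and 5692 in wild-type cells. The groups did not overlap, and the log2 difference was 0.96 ± 0.33 (SE) with limma adjusted p = 0.153. Ndufv3 differed by 0.99, Ndufa7 by 0.90, Ndufb11 by 0.86 and Ndufa3 by 0.90, with groups apart in each. Ndufa4, first described in complex I and since placed with complex IV, read 1965 and 2439 in AhR knockout cells, against 1103 and 1163 in wild-type cells. Its wild-type arrays were close to each other and well below the knockout arrays, with a log2 difference of 0.94 ± 0.35 (SE) with limma adjusted p = 0.181. Of the accessory subunits Ndufs4, whose loss causes a Leigh-like disease in mice, had the lowest difference, -0.25, with overlapping groups. Its direction is not settled, since the second-brightest probe set gave 0.46 and the mean of its 3 probe sets 0.32. Ndufa8, Ndufa9 and Ndufa10 overlapped as well, at 0.039, 0.16 and 0.27, and each was above the wild-type mean in knockout 1 and below it in knockout 2. Ndufb1 had a dim probe set, at 70.2 and 63.5 in knockout cells, against 87.8 and 59.4 in wild-type cells, and was not tested.

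**Figure D2:**
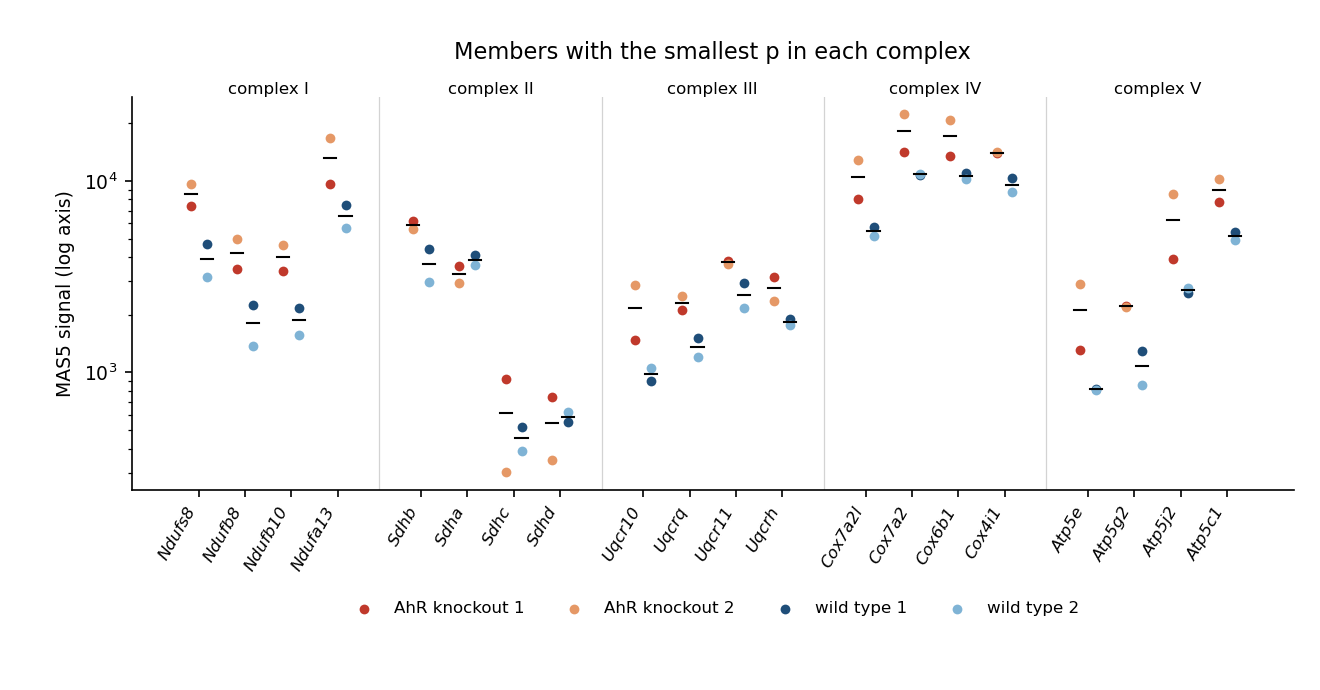
MAS5 signal (vertical log axis) of the 4 tested members with the smallest p in each complex (horizontal axis), on each array. Black bars are group means of 2 arrays. Of the 4 complex II genes, Sdhb alone has both knockout arrays above both wild-type arrays, as have all 4 genes shown for each of the other complexes.

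The complex II genes differed among themselves. Sdhb, the iron-sulfur subunit, read 6203 and 5603 in AhR knockout cells, against 4415 and 2954 in wild-type cells, with groups apart and a log2 difference of 0.70 ± 0.32 (SE) with limma adjusted p = 0.255. Sdha, the flavoprotein that oxidises succinate, read 3602 and 2930.4 in AhR knockout cells, against 4090.2 and 3656 in wild-type cells, so both knockout arrays were lower, by a small margin. Its log2 difference was -0.25 ± 0.32 (SE) with limma adjusted p = 0.674. The second-brightest probe set of Sdha read 3056 and 3045, against 3444 and 2617. Its groups overlapped with a difference of 0.023, so the direction of Sdha is not settled. Sdhc, a membrane anchor, read 928 and 302 in AhR knockout cells, against 517 and 389.5 in wild-type cells, and the knockout arrays lay on either side of the wild-type pair. Sdhd, the other anchor, read 745 and 349 in AhR knockout cells, against 549 and 619 in wild-type cells, with the same split. Both anchor genes were above both wild-type arrays in knockout 1 and below both in knockout 2, whose control ratios stood apart. The dimmer probe sets of Sdhc and Sdhd disagreed in direction with the brighter ones, at -0.93 and 0.57, so neither gene has a settled direction.

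All 8 tested genes of complex III had a difference above 0 as deposited, from 0.25 to 1.06, where 50.4% of all tested genes were above 0. After quantile normalization 7 were, with Uqcrb at -0.12. As deposited 6 had both knockout arrays above both wild-type arrays, where 28.6% of all tested genes did. Uqcr10, a small subunit next to cytochrome c1, read 1483 and 2847 in AhR knockout cells, against 908 and 1059.9 in wild-type cells, and its log2 difference was 1.06 ± 0.41 (SE) with limma adjusted p = 0.190. Knockout 2 was the highest array there by a wide margin. Uqcrq, which neighbours cytochrome b, read 2118 and 2498 in AhR knockout cells, against 1507 and 1208 in wild-type cells, with groups apart and a difference of 0.76. Uqcrfs1, the Rieske iron-sulfur protein that passes electrons to cytochrome c1, read 1516 and 1413 in AhR knockout cells, against 1056 and 946 in wild-type cells. The arrays of a genotype were close to each other, and the difference was 0.54 ± 0.35 (SE) with limma adjusted p = 0.402. Uqcrc1, a core protein, read 4039.7 and 1684 in AhR knockout cells, against 2189 and 1257 in wild-type cells, so knockout 1 was far above the rest and knockout 2 lay between the wild-type arrays. Uqcrb, a small subunit that binds near the coenzyme Q site, read 9551 and 19012 in AhR knockout cells, against 11217 and 11449.7 in wild-type cells, so knockout 1 was below and knockout 2 above both wild-type arrays. Its difference was 0.25. Uqcrh, Uqcr11 and Uqcrc2 also had groups apart, at 0.57, 0.57 and 0.41. Cyc1, cytochrome c1 itself, whose symbol is not among the member symbols, differed by 0.71 with groups apart. Cycs, the mobile carrier to complex IV, read 5033 and 9966 in AhR knockout cells, against 4626 and 6596 in wild-type cells, with overlapping groups and a log2 difference of 0.36 ± 0.37 (SE) with limma adjusted p = 0.597.

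In complex IV, the 9 tested subunits other than the muscle and testis isoforms all had a difference above 0 as deposited, and Cox6a1 and Cox6c among them were below 0 after quantile normalization. As deposited, 8 of the 9 had groups apart, where 28.6% of all tested genes had both knockout arrays higher. After quantile normalization 5 of the 9 had both knockout arrays higher, where 32.2% of all tested genes did. The median of the 9 was then 0.27, in place of 0.57. The gene values that follow are as deposited. Cox7a2l, described as joining complexes III and IV in supercomplexes, read 8056 and 12868 in AhR knockout cells, against 5753 and 5181 in wild-type cells. The groups did not overlap, with a log2 difference of 0.90 ± 0.31 (SE) with limma adjusted p = 0.157. Cox7a2, the non-muscle isoform of a small subunit, read 14224 and 22215 in AhR knockout cells, against 10795 and 10819.8 in wild-type cells. Its wild-type arrays were nearly equal and lay below both knockout arrays, with a difference of 0.72. Cox6b1, which faces cytochrome c, read 13418 and 20689.6 in AhR knockout cells, against 10942 and 10203 in wild-type cells, with a difference of 0.66 and the same order of arrays. Cox4i1, the ubiquitous isoform of the regulatory subunit that binds ATP, read 13904 and 14104 in AhR knockout cells, against 10392 and 8700.5 in wild-type cells, and here the knockout arrays were nearly equal. Its log2 difference was 0.56 ± 0.25 (SE) with limma adjusted p = 0.248. Cox8a, another ubiquitous small subunit, differed by 0.50 and Cox6a1 by 0.32, with groups apart in both. Cox6c read 6023 and 11376 in AhR knockout cells, against 6704 and 7279 in wild-type cells, so knockout 1 was below and knockout 2 above both wild-type arrays.

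The tissue isoforms had signals near the dim end of the array, whose lowest tested gene had a mean of 76.4. Cox6a2, of heart and skeletal muscle, read 74.7 and 128 in AhR knockout cells, against 69.7 and 72.9 in wild-type cells. Its wild-type signals lie below the mean of the dimmest tested gene. Cox6b2, of testis, read 79.1 and 83.4 in AhR knockout cells, against 141 and 62.1 in wild-type cells, with overlapping groups and a difference of -0.19. Cox8c, also of testis, read 167 and 275 in AhR knockout cells, against 141 and 123 in wild-type cells. Its groups were apart, with a log2 difference of 0.64 ± 0.38 (SE) with limma adjusted p = 0.357. Cox4i2, the lung isoform that responds to oxygen, read 38.9 and 55.7 in AhR knockout cells, against 45.7 and 37.4 in wild-type cells, and Cox7a1, of muscle, read 71.8 and 61.9 in AhR knockout cells, against 55.4 and 53.2 in wild-type cells. Cox8b, of muscle and brown fat, read 2.32 and 2.03 in AhR knockout cells, against 24.2 and 11.6 in wild-type cells. These last 3 were below the signal limit and were not tested. Cox7c, a ubiquitous subunit, had 2 probe sets with its symbol alone, and the brighter read 18.7 and 27.1 in AhR knockout cells, against 30.5 and 39.4 in wild-type cells, so it was not tested either.

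Complex V showed its largest differences in single subunits of the head and the membrane part. Atp5e, the epsilon subunit of the F1 head, had the highest difference of all members. It read 1316 and 2909.6 in AhR knockout cells, against 824 and 814 in wild-type cells, and its log2 difference was 1.24 ± 0.43 (SE) with limma adjusted p = 0.158. The wild-type arrays were nearly equal, and knockout 2 was far above knockout 1. Atp5c1, the gamma subunit that turns inside the head, read 7728 and 10186 in AhR knockout cells, against 5406 and 4922 in wild-type cells, with groups apart and a difference of 0.78. Atp5d, the delta subunit, differed by 0.76 and Atp5a1, the alpha subunit, by 0.52, both with groups apart by the brightest probe set. Their second-brightest probe sets gave 0.33 and 0.30. There knockout 2 was at -0.12 and -0.074 and lay between the wild-type arrays in both. The mean of the probe sets gave 0.54 for Atp5d, 0.49 for Atp5a1 and 0.31 for Atp5c1. Atp5b, the catalytic beta subunit, read 7731 and 4338 in AhR knockout cells, against 7624 and 6345 in wild-type cells. Knockout 1 was just above and knockout 2 below both wild-type arrays, and the difference of -0.26 was the lowest in the complex.

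The 3 genes of the c subunit, whose protein forms the rotating ring, all had groups apart. Atp5g2 read 2235 and 2203 in AhR knockout cells, against 1299.9 and 863 in wild-type cells. Its knockout arrays were nearly equal, and the log2 difference was 1.05 ± 0.37 (SE) with limma adjusted p = 0.158. Atp5g1 read 1578 and 1066 in AhR knockout cells, against 1057 and 907 in wild-type cells, and Atp5g3 read 11617 and 14319 in AhR knockout cells, against 9765 and 9466 in wild-type cells. Their differences were 0.40 and 0.42. Among the other membrane and stalk subunits, Atp5j2 read 3908 and 8574 in AhR knockout cells, against 2610.2 and 2756 in wild-type cells, with a log2 difference of 1.11 ± 0.39 (SE) with limma adjusted p = 0.165, and Atp5k differed by 0.88. Both belong to the membrane part, and in both knockout 2 was the highest array by far. Atp5md, a small membrane subunit, read 637 and 2383 in AhR knockout cells, against 542 and 635 in wild-type cells, so knockout 1 was close to wild type and knockout 2 far above it, with a difference of 1.06. Atp5pb, the b subunit of the peripheral stalk, read 6429 and 14351 in AhR knockout cells, against 7204 and 9964 in wild-type cells, with knockout 1 below and knockout 2 above both wild-type arrays. Atpif1, the inhibitor of the enzyme's reverse reaction, is not a member by its symbol and read 2167 and 3516 in AhR knockout cells, against 1354 and 1444 in wild-type cells, with groups apart and a difference of 0.97. Dmac2l, the coupling factor called factor B, read 205 and 283 in AhR knockout cells, against 96.8 and 216 in wild-type cells, with overlapping groups and a difference of 0.67. Over the whole complex, 16 of 17 tested genes had a difference above 0 and 12 had both knockout arrays above both wild-type arrays. For all tested genes these shares were 50.4% and 28.6%.

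Part of the height of the brightest members followed the signal level. Among the 580 tested genes with a mean signal of at least 4000, the median of all genes was already 0.18 in knockout 1 and 0.38 in knockout 2, and that of the 36 members was 0.43 and 0.90. Among the 1731 genes between 1000 and 4000, all genes were at 0.064 and -0.055, and the 31 members at 0.59 and 0.73. Only 8 tested members were dimmer, at 0.082 and -0.20, and they are Sdhc, Sdhd, Ndufs1, Ndufs4, Atp5l, Cox6a2, Cox6b2 and Cox8c. Bright genes as a class were therefore higher on both knockout arrays, and more so in knockout 2. The members of middle brightness stood well above their class on both knockout arrays.

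**Figure D3:**
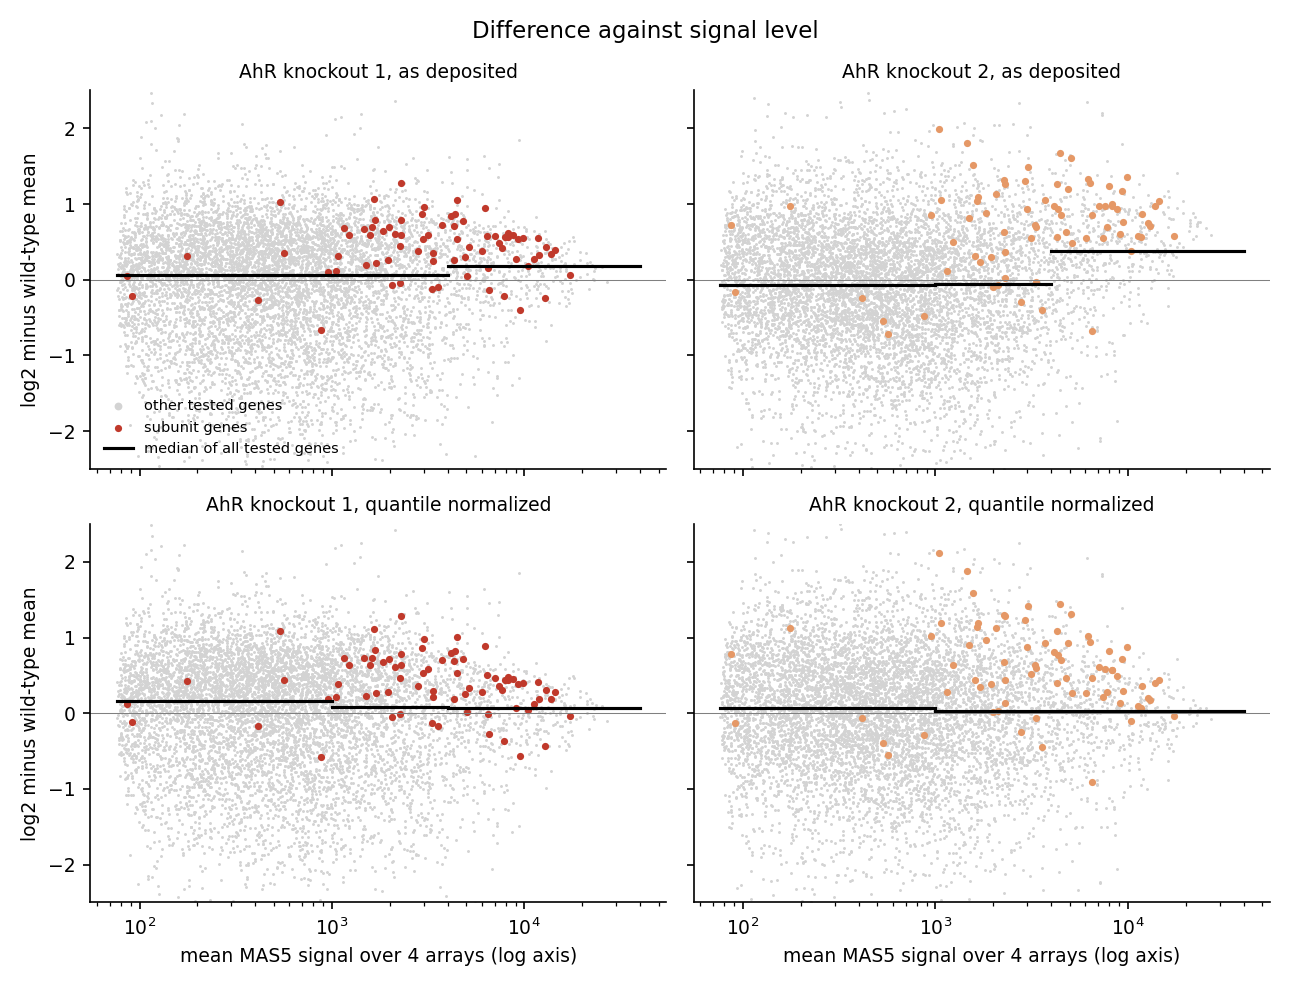
Log2(signal + 16) on each knockout array minus the wild-type mean (vertical axis, clipped at 2.5) against mean signal (horizontal log axis), as deposited in the upper row and after quantile normalization in the lower row. Coloured points are subunit genes, grey points are other tested genes, and black lines are medians of all tested genes below 1000, from 1000 to 4000 and above 4000. As deposited, the line above 4000 lies at 0.38 in knockout 2, and after quantile normalization at 0.033.

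Quantile normalization, which gives every array the same distribution, lowered the median differences of bright genes and of bright members. Over genes of at least 4000 the median difference of all genes became 0.027 in place of 0.29. That of the 36 members there became 0.41 in place of 0.70. Over all 75 members it was 0.51 in place of 0.57, where all tested genes had 0.065 in place of 0.0071. The member median was 0.39 in place of 0.43 in knockout 1, and 0.57 in place of 0.81 in knockout 2. Complex IV lost most, with 0.28 in place of 0.56. Complex I had 0.56 in place of 0.75, complex V 0.47 in place of 0.48, and complex III 0.62 in place of 0.57. Complex III was then the highest. Complex II stayed lowest, at 0.15. Both knockout arrays lay above both wild-type arrays for 51 of 75 members, or 68%, where 32.2% of all tested genes did so. The members above 0 numbered 64 of 75, where 53.9% of all tested genes were above 0, and Uqcrb, Cox6a1, Cox6c, Atp5h and Atp5pb were the members whose difference turned negative. By limma 0 members passed, where 0.296% of all tested genes passed.

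**Figure D4:**
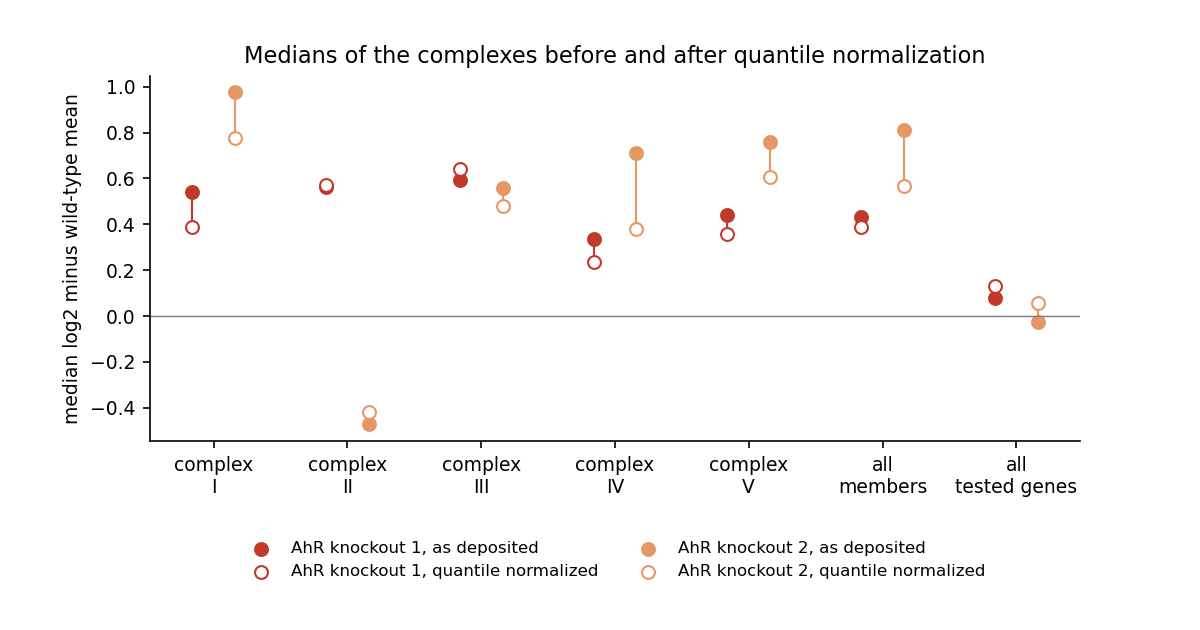
Median log2(signal + 16) minus the wild-type mean (vertical axis) for each complex, all members and all tested genes (horizontal axis), in knockout 1 and knockout 2. Filled circles are deposited values and open circles quantile-normalized values. Complex IV in knockout 2 moved most, to 0.38, against 0.71 as deposited.

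The choice of probe set mattered most in knockout 2. Of the members, 40 had a second probe set as bright as the dimmest tested gene. In knockout 1 their median was 0.41 by the brightest probe set and 0.52 by the second. In knockout 2 it was 0.86 and 0.68. The second probe set read lower than the first, relative to wild type, for 30 of 40 members in knockout 2, or 75%, and for 15 of 40 in knockout 1, or 37.5%. Over 2501 tested genes with such a pair the shares were 58.7% and 45.9%. The brighter probe set of Ndufc2 read 9302 and 11688 in AhR knockout cells, against 7731 and 7625 in wild-type cells, and the dimmer one 2654 and 1068, against 2055 and 2135. The probe sets therefore gave opposite directions in knockout 2 and the same direction in knockout 1. The brighter probe set of Cox6a1 read 15919.9 and 22790.3 in AhR knockout cells, against 15766 and 14820.4 in wild-type cells, and the dimmer one 5141 and 2639, against 4478 and 3302. The same split is seen there. Whether such pairs lie at different distances from the 3' end was not analysed here. Of the 40 pairs, 9 gave differences of opposite sign between knockout and wild type.

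**Figure D5:**
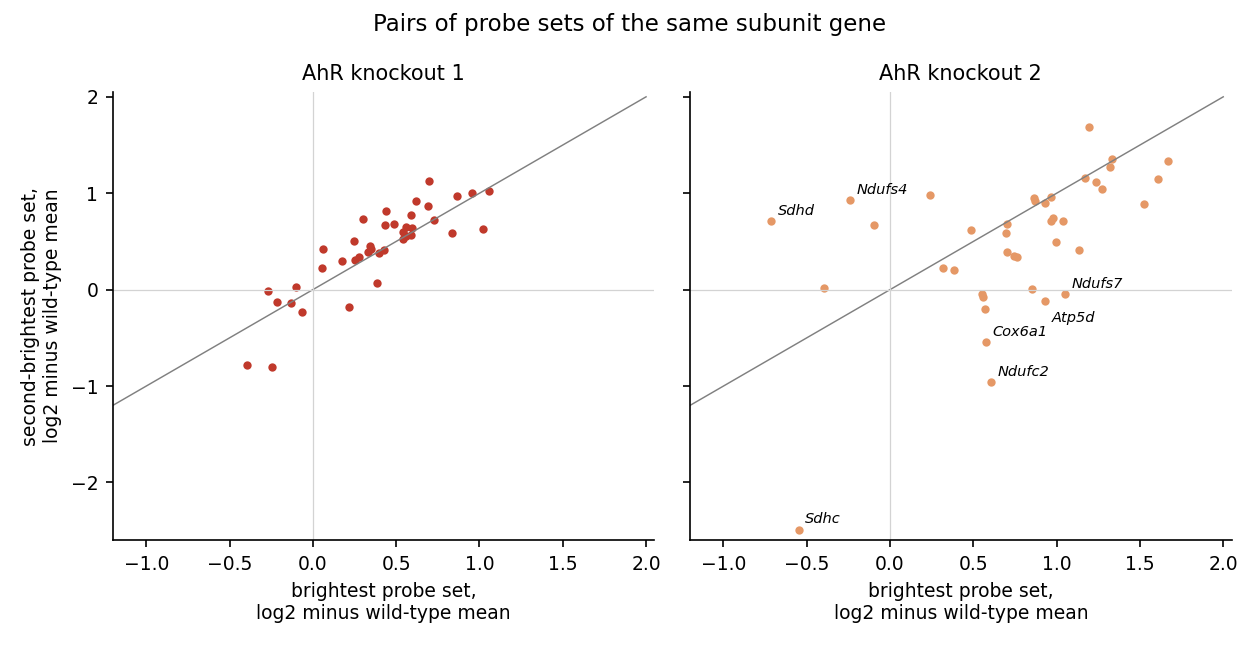
Log2(signal + 16) minus the wild-type mean by the second-brightest probe set (vertical axis) against the brightest (horizontal axis), for 40 subunit genes, in knockout 1 and knockout 2. The diagonal marks equal values and genes more than 1 away from it are named. In knockout 1 no gene is that far from the diagonal, and in knockout 2 there are 7 such genes, 5 of them below it.

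The single knockout arrays gave unlike counts. With knockout 1 as the only knockout array, 3 members passed the limma test, or 4%, where 13.4% of all tested genes passed. They were Uqcrc1 at 1.28 with limma adjusted p = 0.0103, Ndufv1 at 1.06 with 0.0178 and Ndufs8 at 0.95 with 0.0247. With knockout 2 as the only knockout array, 34 members passed, or 45.3%, where 17.8% of all tested genes passed, and all 34 were higher. In each of these fits the lone array is assumed to vary like the wild-type pair. A total of 64 members were above the wild-type mean in knockout 1, and also 64 in knockout 2.

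Genes around the complexes did not all go with them. The lists used here were drawn up with earlier results of these data known. Over all tested genes, 50.4% were above 0 and 0.82% passed the limma test. Of 54 assembly factors, which build the complexes without staying in them, 36 were tested, with 26 above and 10 below 0, a median of 0.36 and 0 past the limma test. Coa3, needed for the first steps of complex IV, read 3232 and 2953 in AhR knockout cells, against 1659 and 1067 in wild-type cells, and its groups were apart with a difference of 1.21 ± 0.36 (SE) with limma adjusted p = 0.118. Uqcc2, needed for cytochrome b of complex III, differed by 1.08 and Pet100, of complex IV assembly, by 0.99. Of 15 tested genes of coenzyme Q synthesis or of other enzymes that feed it, 11 were above 0, with a median of 0.53 and 0 past the test. Prodh, the proline dehydrogenase of the inner membrane, read 1469 and 1945 in AhR knockout cells, against 509.8 and 204 in wild-type cells. Its log2 difference of 2.33 ± 0.46 (SE) with limma adjusted p = 0.0523 missed the threshold by little. Coq9, of coenzyme Q synthesis, differed by 0.92 and Dhodh, of pyrimidine synthesis, by 0.93.

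The citric acid cycle and pyruvate dehydrogenase were divided evenly, with 9 of 18 tested genes above 0, where 50.4% of all tested genes were. The list had a median of 0.033 and 0 past the test, where 0.82% of all tested genes passed. The genes with the smallest p in that list were lower. Dld, the dehydrogenase subunit shared by the pyruvate and oxoglutarate dehydrogenases, read 149.9 and 187 in AhR knockout cells, against 329 and 676 in wild-type cells, with a difference of -1.41 ± 0.42 (SE) with limma adjusted p = 0.117. Suclg2 differed by -1.12 and Dlat, the acetyl transferase of pyruvate dehydrogenase, by -0.86, both with groups apart. Among 9 tested carriers and channels 6 were above 0 as deposited, with a median of 0.14 and 0 past the test. After quantile normalization that median was -0.056. Tspo, of the outer membrane, differed by 0.72 as deposited and the adenine nucleotide carriers Slc25a4 and Slc25a5 by 0.70 and 0.59. After quantile normalization Tspo was at 0.72, Slc25a4 at 0.40 and Slc25a5 at 0.45. A single probe set for a mitochondrially encoded subunit was measured, ND5 of complex I. It read 2424 and 4619 in AhR knockout cells, against 3245 and 4334 in wild-type cells, so knockout 1 was lowest and knockout 2 highest.

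Regulators of mitochondrial genes lay on both sides of 0. Of 20 tested, 8 were above and 12 below 0, where 50.4% of all tested genes were above 0. Both knockout arrays were above both wild-type arrays for 5 and below them for 6, where 28.6% and 26.5% of all tested genes were. The median was -0.19, and -0.070 after quantile normalization. By limma 1 regulator passed as lower and 0 as higher, where 0.82% of all tested genes passed. Sirt1, a deacetylase that acts on PGC-1alpha, fell. It read 99.4 and 83.1 in AhR knockout cells, against 339 and 419.8 in wild-type cells, with a log2 difference of -1.88 ± 0.36 (SE) with limma adjusted p = 0.0489. That call sits at the threshold, since adjusted p was 0.0598 after quantile normalization and 0.195 without the signal filter and 0.401 without wild type 2, and the alternatives ranged from 4.36e-06 to 0.401. Gabpb1, a partner of the ETS factor that binds many respiratory promoters, read 59.2 and 36.3 in AhR knockout cells, against 112 and 139 in wild-type cells, with a difference of -1.17 and limma adjusted p = 0.127. Its knockout signals lie below the mean of the dimmest tested gene, so it was tested only through its wild-type signals. Yy1, a zinc finger factor that also binds such promoters, read 1584 and 1196 in AhR knockout cells, against 2644 and 3148 in wild-type cells, with groups apart and a difference of -1.06 ± 0.35 (SE) with limma adjusted p = 0.144.

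RefSeq promoters were matched for 66 of the 80 members, as 71 windows of 250 bases before a gene start on GRCm38.p6, and 4 short motifs were searched on both strands. The NRF1 letters, GCGCA and GCGC with any base between them, were in 15.5% of member windows and 3.74% of all 32851 windows. NRF1 is a known activator of respiratory genes. The ETS letters CCGGAAG were in 16.9% and 6.91%, the AhR core GCGTG in 40.8% and 28.2%, and CCAAT in 39.4% and 33.8%. With C as that base, the NRF1 letters also hold GCGTG on the other strand, so these matches can overlap. Some windows with NRF1 letters, in capitals with up to 10 bases on each side, are shown because they come from genes at opposite ends of the differences. All these windows lie on the minus strand and are printed 5′ to 3′ on it. The capitals of Ndufa8 hold the NRF1 letters on the opposite strand only. Atp5g2 is at chr15:102671070-102671099, Atp5k at chr5:108434430-108434459, Atp5c1 at chr2:10080433-10080459, Ndufa8 at chr2:36049349-36049378, Sdhd at chr9:50603909-50603938 and the second of the 3 matches of Sdha at chr13:74350276-74350305.
Atp5g2: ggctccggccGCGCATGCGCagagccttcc
Atp5k: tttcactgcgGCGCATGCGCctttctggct
Atp5c1: ctgagctcccGCGCACGCGCactgagt
Ndufa8: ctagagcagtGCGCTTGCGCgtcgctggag
Sdhd: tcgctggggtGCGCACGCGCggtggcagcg
Sdha: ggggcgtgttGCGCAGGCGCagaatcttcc
Atp5g2, Atp5k and Atp5c1 differed by 1.05, 0.88 and 0.78, and Ndufa8, Sdhd and Sdha by 0.039, -0.18 and -0.25. Over the 10 tested members with these letters the median difference was 0.43, and over the 52 with a matched promoter and without them it was 0.65. A match is a description of letters and not a binding site. The windows of all genes were not matched to those of the members for base content or signal level. Whether the shares are particular to the members was not tested.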

How the data were processed

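The starting material was total RNA of 4 melanocyte cultures, which the authors amplified and biotinylated before 1-colour hybridisation to Affymetrix chips, per the labels' protocols. The deposited intensities are MAS5 signals on a linear scale, per the submitters' processing notes, and without the extreme probe sets (the middle 96%) the array means are nearly equal. The sources used here state neither the MAS5 version nor detection calls or filters. All 4 value columns were used.

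Of 22690 probe sets, 20380 had a single gene symbol in the platform annotation, 691 had several and 1555 had none, and 64 were controls. Through gene IDs, 20351 of the single-symbol probe sets received the symbol of the RefSeq GRCm38.p6 gene table. Signals were taken as log2(signal + 16), so differences of dim genes are understated. For each gene the probe set with the highest mean was kept, and the 60% of genes with the highest mean were tested, 7436 of 12393. The AhR knockout and wild-type arrays were compared in R 4.3.3 by limma 3.58.1, with lmFit and a trended eBayes. The p-values were adjusted over all tested genes by the Benjamini-Hochberg method, and the threshold was 0.05. The procedure was tested in 20 simulated runs with 200 genes changed. It recovered 19.9% of 2-fold and 94.6% of 4-fold changes, and 5.44% of its calls were false. Most 2-fold changes were thus missed in these runs. The simulated noise was drawn separately for each gene and array, with no shift shared by the genes of an array. The rates for the real arrays were therefore not measured. With 2 arrays in each group, single-gene permutation tests cannot reach that threshold, and the small number of arrays limits every value. The p-values measure the spread between cultures of single animals.

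Named genes were, for each complex, the 4 with the smallest p and those with the highest and lowest difference, all genes of complex II, Cycs, the tissue isoform pairs and the genes of the c subunit, and the 3 genes with the smallest p of each surrounding list. Other members named in the text were chosen after their values were seen. The members and all lists were chosen with earlier results of these data known. Alternatives covered the normalization, pseudocount, filter, probe set choice, variance model, replicate block and each array left out. Figures used Python 3.11.15 and matplotlib 3.10.9.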

Additional observations from a re-analysis of the deposited data

How the results depend on the processing

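The median over the members stayed above 0 under every alternative run. Over all tested genes, the 61 calls became 22 after quantile normalization, 98 with a pseudocount of 64, 1 without the signal filter, 4 with the brightest 40% of genes, 17 with the second-brightest probe set (an alternative chosen after seeing the data) and 321 at an adjusted p under 0.10. Leaving out 1 array gave 27 to 1323 calls. Rises made up 19.7% of the calls as deposited, 22.7% after quantile normalization and 30.2% with array medians set equal. The members called stayed at 0 except with 1 array left out, which gave 0 to 34, and with the title number as a replicate block, which gave 18 members, or 24%, and 1371 of all tested genes, or 18.4%. The arrays share only a number, no label states a pairing, and deviations of wild type 1 and knockout 1 correlated at 0.356 over all tested genes. The cause of these changes was not tested.

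Leaving out 1 array gave a member median of 0.43 to 0.81, the lowest without knockout 2 and the highest without knockout 1. By complex the ranges were 0.54 to 0.98 for I, -0.47 to 0.56 for II, 0.41 to 0.71 for III, 0.34 to 0.71 for IV and 0.44 to 0.76 for V. Quantile normalization gave 0.28 for complex IV. The sign turned for 5 of 75 tested members after quantile normalization, 9 with the second-brightest probe set, 5 with the mean of all probe sets, 2 without wild type 1, 2 without wild type 2, 5 without knockout 1 and 9 without knockout 2, and for 0 under the other alternatives. Values follow for those among the genes named by the rule. Quantile normalization gave -0.036 for Cox6a1 and -0.12 for Uqcrb. The second-brightest probe set gave -0.061 for Cox6a1, -0.067 for Cycs, 0.023 for Sdha, -0.93 for Sdhc, 0.57 for Sdhd and -0.23 for Uqcrb. The mean of all probe sets gave -0.35 for Sdhc and 0.19 for Sdhd. Leaving out 1 array gave -0.68 to 0.15 for Atp5b, -0.69 to 0.32 for Cox6b2, -0.13 to 0.85 for Cycs, -0.55 to 1.02 for Sdhc, -0.71 to 0.35 for Sdhd and -0.25 to 0.75 for Uqcrb.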

Other observations

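Some subunit genes of complex I had a probe set shared with a close copy, and such probe sets were left out of the members. The probe set shared by Ndufb4, Ndufb4b and Ndufb4c read 4558 and 7295 in AhR knockout cells, against 2946 and 3099 in wild-type cells. Its log2 difference was 0.93, with both knockout arrays above both wild-type arrays. A second probe set of the same genes differed by 0.56, with the groups also apart. The probe set shared by Ndufs6 and Ndufs6b read 3462 and 2619.9, against 2519 and 1603, and differed by 0.58. The one shared by Ndufa11 and Ndufa11b read 2357 and 2109, against 1750.4 and 1259, and differed by 0.58. Ndufab1, the acyl carrier protein found in complex I, is a member by a probe set of its own that differed by 0.23, and a further probe set shared with a pseudogene read 4234 and 5513, against 3702 and 3390.0, and differed by 0.45. A dim probe set shared by Ndufa13 and Yjefn3 differed by -0.14, and one shared by Ndufb2 and Adck2 read 102 and 95.6, against 91.1 and 107, with no clear direction. Other scalings were not examined for these probe sets.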
